A study of Mus musculus with 3 samples.

Results

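The cytosolic ribosomal protein genes are the genes whose products, with the ribosomal RNAs, build the ribosomes of the cytoplasm. They were taken by name: every gene symbol of the deposited gene table that begins with Rpl, Rps, Rplp or Rpsa and continues only with a number and a short suffix was a member, and names ending in the mark for a pseudogene were not. The rule found 83 of 27998 genes, and all 83 could be tested between cell classes. The match by name used no measured value. Rpl29 and Rpl21, picked out by measured values, were kept out of every sum over members because their counts differ between whole libraries, which leaves 81 genes, and they are described on their own at the end. Some genes that also encode or carry ribosomal proteins have other names and are not matched by the rule, among them Rps3a1, Rpl36al, Fau and Gnb2l1.

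A ribosome has a small subunit, which reads the messenger RNA, and a large subunit, which joins amino acids. Most ribosomal proteins are present in equal number in a ribosome, and the messenger RNAs for them begin with a run of pyrimidines that lets the mTORC1 kinase set their translation together. Several members have a second gene, or paralog, whose protein can take the same place in the ribosome: Rpl39l, Rpl10l and Rpl3l are known as the forms used in germ cells or muscle, and Rpl22l1 as a partner of Rpl22. Spermatogenic cells silence the X chromosome in meiosis, and autosomal copies of X-linked ribosomal protein genes are known to be active there. The germ cells of a newborn testis have not reached meiosis.

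Testes of male mice were profiled as single cells from 3 genotypes, with 1 library each: Cdk2-WT (Cdk2+/+), Cdk2-HET (Cdk2+/YS) and Cdk2-Y15S (Cdk2YS/YS), where the YS allele encodes a changed residue of the CDK2 kinase. The males were untreated and at postnatal day 3, given as 3.5 days in the dissection protocol, and came from crosses of heterozygous parents on a background mixed from the strains B6(Cg)-Tyrc-2J/J and FVB/NJ. How many animals gave each library was not stated in the texts used. The allele is carried in every cell, and a changed residue leaves no mark in gene counts, so the labels could not be checked on Cdk2 itself. Cells were freed with trypsin, EDTA and DNase I, and RNA was counted with 10x Genomics 3′ chemistry as unique molecular identifiers (UMIs). One UMI stands for 1 captured molecule whatever its length. Levels are given as counts per 1000000 UMIs (CPM) of a summed class of cells. Where 3 values follow each other they belong to Cdk2-WT, then Cdk2-HET, then Cdk2-Y15S, and where 2 germ values do, to Cdk2-WT and then Cdk2-Y15S. Since each genotype is 1 library, differences between genotypes carry no test, and intervals cover counting error only.

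Promoter sequence was looked at because pyrimidine runs at the start site are what ribosomal protein genes share. In RefSeq sequence (GRCm38.p6), 62 of the 83 genes had a promoter entry. The run CTTTT was searched on both strands, together with its variant CTTTC and the shorter-tailed variant CTTCC, which do not contain each other. One of these within the 50 bases centred on the start, read along the gene, was present in 33 of the 62 (53.2%), counting a promoter with several runs 1 time, and in 6334 of all 27025 genes (23.4%). Read on the other strand it was present in 22 of the 62 (35.5%) and in 24% of all genes. Among 68 mitochondrial ribosomal protein genes 33.8% held it along the gene and 29.4% on the other strand. The following lines show 30 bases around the start of 6 members on which the results turn, 5′ to 3′, with a matching run in capitals. Rps6, Rpl22l1 and Rpl39l hold one of the searched runs in these windows, and the windows of Rps4x, Rpl39 and Rpsa hold none of them. The Rpl39 window does hold a longer pyrimidine stretch near its end, which the search does not match. In the GENCODE annotation Rps6, Rpl22l1, Rpl39 and Rpsa begin upstream of these windows. Of other members described here, Rpl22, Rpl10l and Rpl26 held none of the searched runs within the 50 bases, and these 3 are autosomal.
Rps6, chr4:86857353-86857382, minus strand: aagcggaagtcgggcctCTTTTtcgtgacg
Rpl22l1, chr3:28805493-28805522, plus strand: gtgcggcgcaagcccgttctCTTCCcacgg
Rpl39l, chr16:10170213-10170242, plus strand: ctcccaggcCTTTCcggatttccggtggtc
Rps4x, chrX:102189377-102189406, minus strand: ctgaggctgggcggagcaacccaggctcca
Rpl39, chrX:37085208-37085237, minus strand: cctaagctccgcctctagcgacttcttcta
Rpsa, chr9:120127751-120127780, plus strand: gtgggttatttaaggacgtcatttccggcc

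Ribosomal protein genes are short and have many processed copies in the genome, and a 3′ read that fits a gene and a copy equally well may be lost. The last 200 bases of their transcripts matched at least 1 other annotated gene at 95% identity or more for 64 members. A copy identical over the aligned stretch was found for 43 members, and for 28 members a copy has its own row in the table. These counts leave out Rpl7l1, which has 14 copies, 10 of them with a row. Rpl6l, with no protein-coding transcript, was not searched. Levels are therefore compared for 1 gene between cells and not read as amounts of protein. The members Rps12, Rps27, Rps2, Rpl10 and Rpl27 had 8 to 45 such copies each and stood far below other members, so their levels and calls are uncertain.

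The libraries held 4403 to 5061 cells and 28651691 to 32025077 UMIs, with a median of 5570 to 5908 UMIs per cell, and pairs of libraries shared 27 to 32 cell barcodes. Germ cells were the 141 cells of the deposited cluster table, 69 of Cdk2-WT and 72 of Cdk2-Y15S, with none of Cdk2-HET. Sertoli cells (1505 to 2361 per library), mesenchymal cells (2139 to 2407) and Leydig cells (32 to 44) were taken by marker UMIs. Each class led in its own list of 5 marker genes. For the Sertoli, mesenchymal and Leydig lists this was fixed by the choice, since they hold the genes by which those classes were taken. The germ list summed to 1922 and 1564 CPM in germ cells and to at most 18.9 CPM in the sums of other classes. Germ cells also held 251 and 286 CPM of the Sertoli list and 178 and 373 CPM of the mesenchymal list, and Leydig sums held 1121 to 1728 CPM of the Sertoli list. The part of such RNA in the results below was not tested. Germ cells were the deepest class, with a median of 16653 and 18462 UMIs per cell.

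Ribosomal protein genes gave between 17.8% and 25% of all UMIs in every class and library. Their share was 18.2% in Cdk2-WT and 17.8% in Cdk2-Y15S germ cells. In Sertoli cells it was 22.5% in Cdk2-WT, 20.7% in Cdk2-HET and 20.8% in Cdk2-Y15S. Mesenchymal cells had the highest share in each library, at 25%, 23.2% and 24.3%. Leydig cells had 18%, 18.6% and 19.7%, so that germ and Leydig sums lay below all Sertoli and mesenchymal sums. Single cells spread widely around these sums: the interquartile range of Cdk2-WT germ cells was 15% to 20.4%, and that of Cdk2-Y15S Leydig cells was 13.2% to 26.9%. UMIs from mitochondrially encoded genes differed between the classes too, from 2.74% in mesenchymal to 10.7% in germ cells. With them left out of the total the germ shares were 20.4% and 19.7%, the Leydig shares 19.3% to 21.1%, and the mesenchymal shares 23.9% to 25.7%. Small-subunit genes made 44.2% to 46.6% of ribosomal protein UMIs in all classes and germ clusters.

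**Figure D1:**
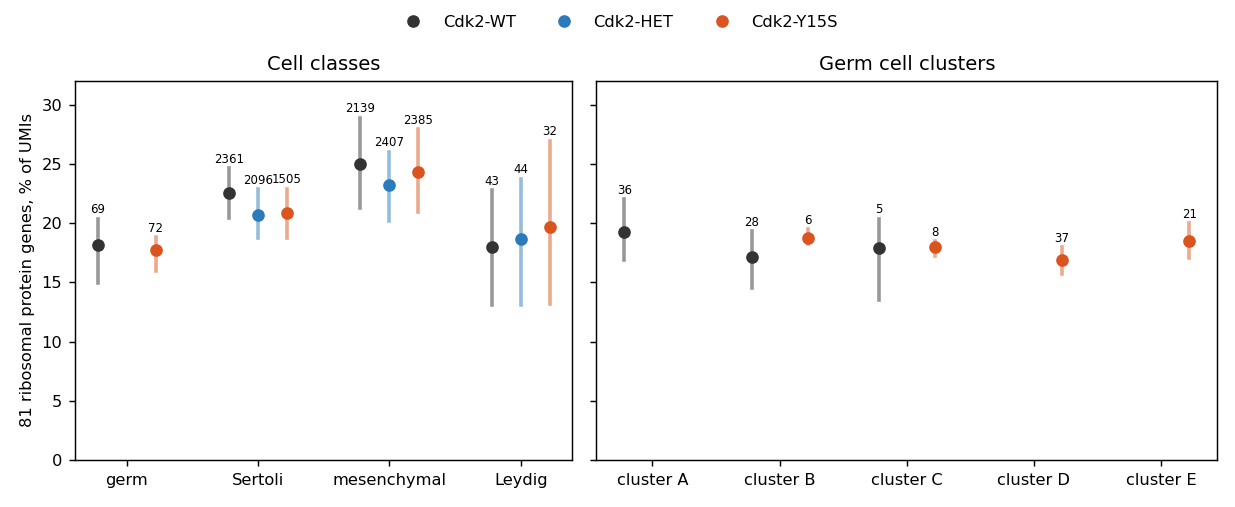
Share of UMIs from 81 ribosomal protein genes (percent, vertical axis) by class and library on the left and by deposited germ cluster on the right. Dots are summed cells, bars the interquartile range of single cells, and printed numbers the cells in each sum. Germ and Leydig sums sit between 17.8% and 19.7%, below Sertoli sums from 20.7% and mesenchymal sums from 23.2%.

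Between cell classes most members were lower in germ cells. Against Sertoli cells, 51 of 83 members fell and 9 rose in edgeR's quasi-likelihood test with the library as block (Benjamini-Hochberg adjusted p at most 0.05 over 14862 genes), where 25% of all genes fell and 34.6% rose. The 9 were Rpl39l, Rpl10l, Rpl3l, Rpsa, Rplp1, Rps2, Rpl12, Rpl27 and Rplp0, of which Rpl3l, Rpl27 and Rplp0 were lost under at least 1 alternative. The median log2 difference over all 83 members was -0.44, and that of all genes was 0.19. Against mesenchymal cells 59 fell and 6 rose, with 27.6% of all genes lower and 35.9% higher, and the medians were -0.66 and 0.16. Rpl10l and Rpl3l are in both counts of members that rose, and passed the low-count filter of the main test only through their germ sums. Libraries serve as the replicates here, and since they differ in genotype the spread includes any effect of genotype that differs between classes. Leaving out the Cdk2-WT library, the count higher than in mesenchymal cells was 10, and leaving out Cdk2-Y15S it was 3.

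Sertoli and Leydig cells were lower than mesenchymal cells as well. In Sertoli cells 42 members fell and 2 rose, with 30.7% of all genes lower and 31.5% higher, and the median over members was -0.29 against 0.03 over all genes. Without the Cdk2-HET library 22 fell. In Leydig cells 65 fell and none rose by the same edgeR test, with 15.5% of all genes lower and 11.9% higher. At an unadjusted p under 0.05 the Leydig comparison had 1 member higher, and DESeq2 called 0 higher and 70 lower. These Leydig calls rest on 32 to 44 cells per library, and 3 members were called lower with a stricter cell filter (1000 genes, 5% mitochondrial UMIs). The Leydig median was -0.51, with -0.22 over all genes.

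**Figure D2:**
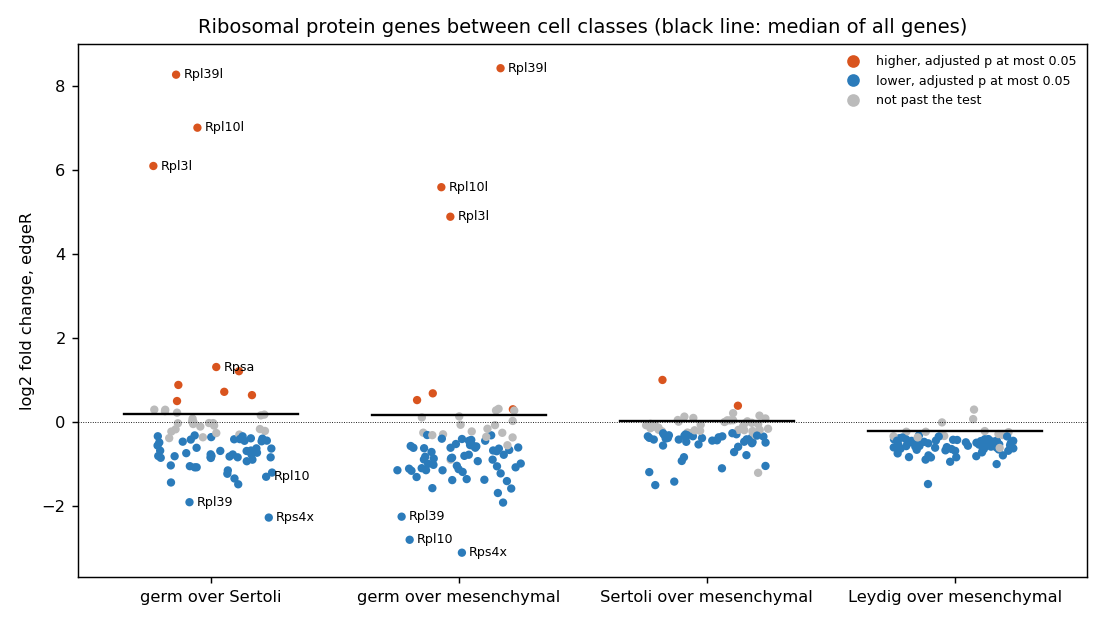
Fitted log2 differences (vertical axis) of the 83 ribosomal protein genes in 4 class comparisons, with members that rose in orange, fell in blue and did not pass in grey, and the median of all genes as a black line. Rpl39l, Rpl10l and Rpl3l are left out of the Leydig comparison, where all 3 Leydig sums are 0. Most members lie below the line in each comparison. The drawn heights of Rpl10l and Rpl3l rest on few somatic UMIs and are not bounds.

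The stalk of the large subunit is where elongation factors land. Rplp0, the stalk's base, stood at 5095 and 5339 CPM in germ cells and at 3217, 3085 and 3312 CPM in Sertoli cells. It rose by 0.50 on the log2 scale (edgeR adjusted p = 0.00134), and this call was lost under 5 alternatives, with an adjusted p of 0.20 without Cdk2-Y15S. Its mesenchymal levels were 5762, 5619 and 5901 CPM, against which germ cells fell (log2 -0.42, edgeR adjusted p = 0.00541). Rplp1, a stalk arm, was 3552 and 3380 CPM in germ cells and 1285, 1130 and 1369 CPM in Sertoli cells, with no overlap. The log2 difference was 1.21 (edgeR adjusted p = 3.4e-08), and against the mesenchymal levels of 2665, 2350 and 2649 CPM it was 0.11 (adjusted p = 0.48). Rplp2, the other arm, was 2926 and 3093 CPM in germ cells and 2295, 1985 and 2161 CPM in Sertoli cells, a log2 difference of 0.26 that did not pass (edgeR adjusted p = 0.102). Rpl12, which lies at the stalk's foot, was 3918 and 4008 CPM in germ cells against 2009 to 2235 CPM in Sertoli cells (log2 0.72, edgeR adjusted p = 2.31e-05). In Leydig cells all of Rplp0, Rplp1, Rplp2 and Rpl12 fell against mesenchymal cells, by 0.60 to 1.00 on the log2 scale. In that comparison 65 of all 83 members fell, and 15.5% of all genes. Each of these stalk calls was lost under at least 1 alternative.

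Rpsa, a small-subunit protein also known as a laminin receptor, is 1 of the 5 members picked for the highest germ CPM. Its high germ level was thus part of the choice, and its germ differences are given as a description. It has 10 near-identical copies without a row of their own in the table. It stood at 7712 CPM in Cdk2-WT and 5543 CPM in Cdk2-Y15S germ cells, at 2423, 2365 and 2248 CPM in Sertoli cells and at 3907, 3916 and 3667 CPM in mesenchymal cells. Both germ sums lay above every somatic sum. The log2 difference was 1.31 over Sertoli cells (edgeR adjusted p = 6.67e-09) and 0.52 over mesenchymal cells (adjusted p = 0.00117), and the latter call was lost in 4 alternatives. Rps24, Rpl32, Rplp0 and Rps16 are the other members picked for their germ CPM. Of these Rps24 (log2 0.18, edgeR adjusted p = 0.211) and Rps16 (-0.05, adjusted p = 0.755) did not pass the test against Sertoli cells. Rpl32 fell against Sertoli cells (log2 -0.34, edgeR adjusted p = 0.0258) and against mesenchymal cells (-0.45, adjusted p = 0.00409).

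Further small-subunit members described by role were Rps6, Rps19 and Rps27a, and Rps9 was added after its value was seen. Rps6, the protein that S6 kinase phosphorylates, was 2328 and 2250 CPM in germ cells, 3900, 3532 and 3288 CPM in Sertoli cells and 4843, 4525 and 4678 CPM in mesenchymal cells. Its log2 difference was -0.84 from Sertoli (edgeR adjusted p = 4.64e-06) and -1.31 from mesenchymal cells (adjusted p = 5.33e-09). Rps19, whose human gene is mutated in Diamond-Blackfan anaemia, was 4671 and 4338 CPM in germ cells and 7454 to 9311 CPM in the Sertoli and mesenchymal sums (log2 -1.15 from Sertoli cells, edgeR adjusted p = 1.14e-08). Rps27a, which is made as a fusion with ubiquitin, was 4833 and 4267 CPM in germ cells and 6268, 6014 and 6013 CPM in Sertoli cells (log2 -0.63, edgeR adjusted p = 6.96e-05). Rps9, a protein of the small subunit's body, was 1643 and 1916 CPM in germ cells against 4102 to 4335 CPM in Sertoli cells (log2 -1.44, edgeR adjusted p = 3.21e-09).

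Rpl11 and Rpl5 form, with 5S ribosomal RNA, the particle that binds MDM2 and holds back the breakdown of p53. Rpl11 was 941 and 957 CPM in germ cells and 2373, 2347 and 2264 CPM in Sertoli cells, one of the 3 members with the lowest log2 difference (-1.48, edgeR adjusted p = 9.91e-10). The groups did not overlap, and the mesenchymal sums of 2292, 2293 and 2464 CPM were close to the Sertoli sums. Rpl5 was 1373 and 924 CPM in germ cells and 1322, 1261 and 1256 CPM in Sertoli cells, so the Cdk2-WT germ sum lay above the Sertoli sums and the Cdk2-Y15S sum below. Its log2 difference of -0.36 (edgeR adjusted p = 0.0342) was lost under DESeq2 and without Cdk2-HET. Rpl3, a protein at the peptidyl transferase centre, was 1923 and 1862 CPM in germ cells and 4410, 4121 and 4022 CPM in Sertoli cells (log2 -1.34, edgeR adjusted p = 4.27e-09).

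All 4 X-linked members fell in germ cells against both Sertoli and mesenchymal cells, where 51 and 59 of all 83 members fell and 25% and 27.6% of all genes. Rps4x, a small-subunit protein, had the lowest log2 difference of all members in both comparisons. It stood at 1695 CPM in Cdk2-WT and 629 CPM in Cdk2-Y15S germ cells, at 5019, 4492 and 4247 CPM in Sertoli cells and at 8025, 7473 and 7626 CPM in mesenchymal cells. Its log2 difference was -2.27 from Sertoli (edgeR adjusted p = 2.12e-05) and -3.11 from mesenchymal cells (adjusted p = 1.79e-06). Rpl39, which lines the exit tunnel, was 732 and 659 CPM in germ cells, 2464, 2091 and 2124 CPM in Sertoli cells and 2004 to 2324 CPM in Leydig cells (log2 -1.91 from Sertoli cells, edgeR adjusted p = 5.43e-11). Rpl36a, a large-subunit protein near the exit site, was 779 and 1028 CPM in germ cells and 1897, 1598 and 1683 CPM in Sertoli cells (log2 -1.20, edgeR adjusted p = 3.71e-07). Rpl10, which helps join the subunits, was 33.0 and 23.5 CPM in germ cells and 59.5, 52.5 and 60.8 CPM in Sertoli cells, levels at which its 15 copies make the count uncertain (log2 -1.30, edgeR adjusted p = 8.24e-06).

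The paralogs Rpl39l, Rpl10l and Rpl3l were the 3 members with the highest germ differences over both Sertoli and mesenchymal cells. Rpl10l and Rpl3l passed edgeR's filter on low counts only through their germ sums. That they were tested in the main test thus rests on the group where they are high. Rpl39l, the paralog of Rpl39, stood at 776 CPM in Cdk2-WT and 631 CPM in Cdk2-Y15S germ cells, at 1.45, 2.78 and 2.87 CPM in Sertoli cells and at 0.704, 2.68 and 2.45 CPM in mesenchymal cells. Every one of the 69 and 72 germ cells held a UMI of it, against 0.805% to 1.53% of Sertoli cells, whose median depth of 6150 to 6283 UMIs was lower. Leydig sums held 0 UMIs, which allows up to 7.01 to 10.3 CPM. The log2 difference was 8.27 over Sertoli cells (edgeR adjusted p = 7.58e-13) and 8.43 over mesenchymal cells (adjusted p = 5.28e-13). Of the UMIs of Rpl39l and Rpl39 together, Rpl39l made 51.4% in Cdk2-WT germ cells (95% Clopper-Pearson interval 49.1% to 53.8%) and 48.9% in Cdk2-Y15S germ cells (46.6% to 51.3%), and at most 0.135% in any Sertoli or mesenchymal sum. It lay at 32.8% and 35% in germ cluster C and at 40.7% to 56.6% in the other clusters, and cluster C also held 1107 and 1743 CPM of the mesenchymal marker list, against 118 to 312 CPM in the others.

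Rpl10l, an autosomal paralog of Rpl10, was 51.1 and 47.1 CPM in germ cells, found in 43 of 69 and 42 of 72 cells, and 0.263 to 1.12 CPM in Sertoli and mesenchymal sums. It rose over Sertoli cells (edgeR adjusted p = 1.54e-11) and over mesenchymal cells (adjusted p = 8.7e-11). Its Sertoli sums held 3 to 4 UMIs and its mesenchymal sums 7 to 15. Since it passed the low-count filter only through its germ sums, these values are given as a description. Rpl3l, known from muscle, had 8 and 2 UMIs in germ cells (6.59 and 1.43 CPM) and 0 to 3 UMIs in each Sertoli and mesenchymal sum. It passed the test over Sertoli cells (edgeR adjusted p = 7.29e-05), and this call rests on those few UMIs. Rps27l, a p53 target and paralog of Rps27, behaved in the other direction: it was 984, 1035 and 1013 CPM in Sertoli cells and 482, 472 and 477 CPM in mesenchymal cells (log2 1.00, edgeR adjusted p = 2.43e-07). It was the only member higher in Sertoli than in mesenchymal cells in the main test and all 9 alternatives. Germ cells had 608 and 811 CPM and Leydig cells 704, 687 and 592 CPM. Rps27 itself was 35.4 to 114 CPM in all sums and is 1 of the members with uncertain counts. Rpl7l1, a nucleolar relative of Rpl7, made 2.79% and 4.92% of the pair's UMIs in germ cells, where Rpl7 was 2384 and 1792 CPM and Rpl7l1 was 68.4 and 92.8 CPM.

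Rpl22 and Rpl22l1 are paralogs, and the Rpl22 protein is known to bind the Rpl22l1 transcript and lower its level. In Sertoli cells Rpl22 was 1419, 1408 and 1454 CPM and Rpl22l1 was 1037, 995 and 1126 CPM. In mesenchymal cells Rpl22 was 1260, 1180 and 1258 CPM and Rpl22l1 was 2201, 2298 and 2322 CPM. Rpl22l1 thus fell in Sertoli cells (log2 -1.19, edgeR adjusted p = 0.0104), while Rpl22 did not pass (0.13, adjusted p = 0.411). Of the pair's UMIs, Rpl22l1 made 41.4% to 43.7% in Sertoli, 63.6% to 66.1% in mesenchymal and 64.0% to 66.6% in Leydig sums. In germ cells the 2 libraries stood apart: Rpl22l1 was 2319 and 814 CPM in Cdk2-WT and Cdk2-Y15S, and Rpl22 was 795 and 1271 CPM. The germ difference from Sertoli cells therefore did not pass for Rpl22l1 (log2 0.30, edgeR adjusted p = 0.51), and its sign was negative without Cdk2-WT (-0.54).

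Genes that work beside the ribosomal proteins did not share one direction. Over all genes, 34.6% rose and 25% fell in germ against Sertoli cells, and 35.9% rose and 27.6% fell against mesenchymal cells. Of 17 elongation and other pyrimidine-start genes, 11 fell and 1 rose in germ against Sertoli cells: the nascent-chain partner Btf3 (log2 -1.59) and the tumour protein gene Tpt1 (-1.47) fell, and the poly(A)-binding Pabpc1 rose (1.19). Of 30 genes of ribosome biogenesis and RNA polymerase I, 20 rose and 2 fell. The small-subunit processing factors Utp20 (log2 2.03) and Bysl (1.72) rose, and the polymerase subunits Polr1a (-1.01) and Polr2l (-1.13) fell. Over mesenchymal cells 23 of the 30 rose and none fell by edgeR. Of 20 mTORC1 and Myc genes 5 rose, Mtor among them (1.79), and 5 fell, Ddit4 among them (-2.66). The 77 mitochondrial ribosomal protein genes, which build the ribosomes of mitochondria, had 18 higher and 17 lower against Sertoli cells and 37 higher and 6 lower against mesenchymal cells. Their medians of 0.06 and 0.39 in these comparisons lay above those of the cytosolic members, -0.44 and -0.66.

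Between the Cdk2-Y15S and Cdk2-WT germ cells the summed members were nearly level, at a log2 ratio of -0.03 (-0.04 to -0.03), while single members differed in both directions. Of 74 members with at least 200 UMIs in the pair, 5 were higher and 4 lower by a log2 ratio of 0.5 or more, a count with no test, against 15.2% of 2283 genes higher and 11.4% lower. Genes near that UMI limit carry wider counting error than most members. The median over members was 0.03 and over all genes 0.04. Members kept out by the UMI limit were Rpl3l, Rps12, Rpl10, Rps27, Rps2, Rpl10l and Rpl27. The sign of the summed ratio depends on the scaling, since with TMM-scaled totals it was 0.07.

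Rpl22l1 had the lowest ratio, -1.51 (-1.61 to -1.41), from 2319 to 814 CPM, and Rps4x followed at -1.43 (-1.55 to -1.32), from 1695 to 629 CPM. Rpl5 was 1373 CPM in Cdk2-WT and 924 CPM in Cdk2-Y15S (-0.57), and Rpl4, a tunnel protein, was 4166 and 2858 CPM (-0.54). On the higher side stood Rpl22 (795 and 1271 CPM, 0.68), Rpl38 (546 and 828 CPM, 0.60), whose loss in mice alters the body axis, Rpl9 (246 and 368 CPM, 0.58), Rpl24 (1443 and 2092 CPM, 0.54), a bridge between the subunits, and Rpl41 (1747 and 2491 CPM, 0.51), the shortest member. Rpl22l1 made 74.5% of its pair with Rpl22 in Cdk2-WT germ cells (95% Clopper-Pearson interval 73.0% to 75.8%) and 39.0% in Cdk2-Y15S germ cells (37.3% to 40.8%). In Sertoli and mesenchymal cells the log2 ratios of Rpl22l1 between the same libraries were 0.12 and 0.08, and those of Rps4x were -0.24 and -0.07.

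The 5 deposited germ clusters were divided unevenly between the libraries, and the same members differed between clusters. All 36 cells of cluster A were Cdk2-WT, all 37 of D and 21 of E were Cdk2-Y15S, and only B (28 and 6 cells) and C (5 and 8 cells) held both. Rps4x stood at 2252 CPM in A and at 515 and 362 CPM in D and E, while in B it was 988 CPM in Cdk2-WT and 1254 CPM in Cdk2-Y15S and in C 2498 and 1715 CPM. Within B it was thus higher in Cdk2-Y15S, and within C lower. Rpl22l1 was 3006 CPM in A and 817 and 627 CPM in D and E, with 1672 and 1281 CPM in B and 1561 and 1053 CPM in C, lower in Cdk2-Y15S in both shared clusters. Rpl22 was 683 CPM in A, 1166 and 1441 CPM in D and E, 903 and 1254 CPM in B and 908 and 1090 CPM in C. The Rpl22l1 share of the pair ran from 81.5% in A to 30.3% in E, with 64.9% and 50.5% in B. With B and C weighted equally, an alternative added after seeing the data, 1 member passed the fold, Rpl23a (0.64), and the ratios were -0.47 for Rpl22l1, -0.23 for Rps4x and 0.37 for Rpl22. Those clusters rest on 5 to 28 cells per library. Genotype and cluster cannot be told apart in clusters A, D and E.

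**Figure D3:**
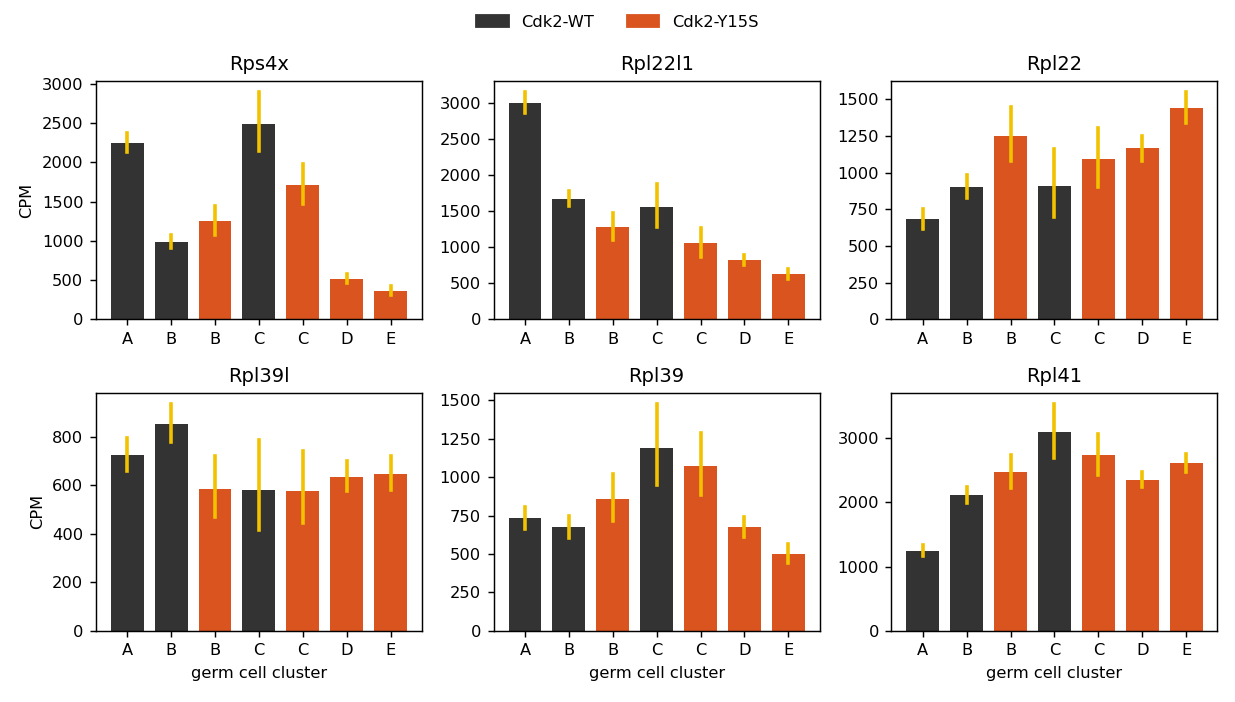
Levels of 6 ribosomal protein genes (CPM, vertical axis) in the deposited germ clusters A to E, with bars by cluster and library and yellow lines for 95% Poisson intervals. Rps4x and Rpl22l1 are lowest in clusters D and E, at 362 to 817 CPM, and Rpl22l1 is highest in A, while Rpl39l stays within 578 to 855 CPM.

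Other members had their own order across the clusters. Rpl39l ran from 578 to 855 CPM over the 7 cluster and library sums, and Rpl39 from 497 to 1192 CPM, highest in C. Rpsa was 8353 CPM in A, 7330 and 6209 CPM in B and 4716 to 5783 CPM in C, D and E. Rpl41 was 1251 CPM in A and 2111 to 3094 CPM in all other clusters. Rpl38 was 522 and 536 CPM in A and B of Cdk2-WT and 823 CPM in C of Cdk2-WT, which is as high as the 828 CPM of E. The share of all members in UMIs was 19.2% in A, 16.9% in D and 18.5% in E, and in B it was 17.1% in Cdk2-WT and 18.7% in Cdk2-Y15S. Rpl24, Rpl9, Rpl22 and Rpl41 fell in germ against Sertoli cells, so their higher Cdk2-Y15S levels were nearer to the Sertoli ones. Rpl38 did not pass that test (log2 -0.17, edgeR adjusted p = 0.368). The Cdk2-Y15S level of Rps4x was farther from the Sertoli ones. Cdk2-Y15S germ cells held more of the mesenchymal marker list (373 against 178 CPM), and the part of such RNA in these levels was not tested.

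Among the genes of the same processes, 14 of 54 mitochondrial ribosomal protein genes with enough UMIs were higher and 1 was lower in Cdk2-Y15S germ cells, where 15.2% of all genes were higher and 11.4% lower. Their median was 0.36, and their sum was 9818 CPM in Cdk2-WT and 11821 CPM in Cdk2-Y15S. Of 17 biogenesis genes 4 were higher, among them Nip7 (0.96) and Nhp2 (0.86), and none lower. Of 17 elongation genes Eef1g (0.73) was higher, and Eef1b2 (-0.62) and Eif4b (-0.51) were lower. The median of the cytosolic members, 0.03, lay within 0.01 of the all-gene median.

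In the somatic classes the members of Cdk2-Y15S and Cdk2-HET differed little from Cdk2-WT, and both comparisons share the Cdk2-WT library. In Sertoli cells none of 78 members passed a log2 ratio of 0.5 in either comparison, where 11.6% of all genes did in Cdk2-Y15S (8.57% higher, 3.02% lower) and 3.85% in Cdk2-HET (2.44% higher, 1.41% lower). Nevertheless 57 of the 78 lay below 0 in Cdk2-Y15S, with a median of -0.08 against 0.06 over all genes, and 71 of 78 in Cdk2-HET, with a median of -0.12 against 0.06. In mesenchymal cells 1 of 78 passed in Cdk2-Y15S, Rpl26, and none in Cdk2-HET, where 8.37% of all genes passed in Cdk2-Y15S (4.78% higher, 3.59% lower) and 3.91% in Cdk2-HET (2.44% higher, 1.47% lower). There the medians were -0.03 and -0.10, against 0.01 and 0.04 over all genes. In Cdk2-HET 67 of 78 members lay below 0 in these cells. For the counts below 0 in both classes, the share of all genes was not computed. In Leydig cells 1 of 70 passed in Cdk2-Y15S, again Rpl26, and none of 71 in Cdk2-HET, where 14.9% of genes passed in Cdk2-Y15S (6.8% higher, 8.11% lower) and 9.12% in Cdk2-HET (4.29% higher, 4.83% lower). The Leydig medians over members were 0.15 and 0.06, against 0.02 over all genes in each comparison. The summed ratios in Leydig cells, 0.13 and 0.05, had the opposite sign to the sums in Sertoli cells, -0.11 and -0.12, and the Cdk2-HET value was -0.01 with looser cell filters. Single members at the ends of the Cdk2-HET comparison were Rps18, a protein of the small subunit's head (382 CPM in Cdk2-WT and 296 CPM in Cdk2-HET Sertoli cells, -0.37, and -0.20 with its 2 copies in the table added), Rpl6l (183 and 140 CPM in mesenchymal cells, -0.38), which the annotation gives as a pseudogene, and Rpl9 (389 and 519 CPM in Leydig cells, 0.41).

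**Figure D4:**
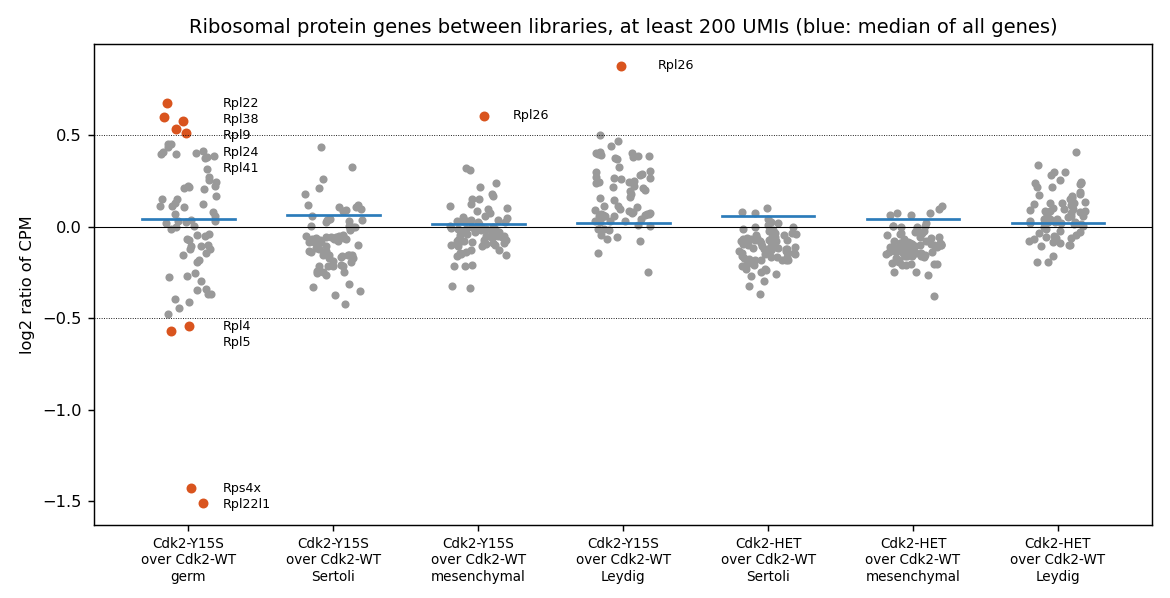
Log2 ratio of each ribosomal protein gene with at least 200 UMIs (vertical axis) in 7 comparisons of a library with Cdk2-WT, with members past 0.5 in either direction in orange and the all-gene median as a blue line. The germ comparison is the widest, from -1.51 to 0.68, and Rpl26 is the only orange point outside it.

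Rpl26, a large-subunit protein that also binds p53 messenger RNA, had the highest Cdk2-Y15S ratio in each somatic class among the members with at least 200 UMIs, Rpl29 and Rpl21 left out. It was 2449, 2165 and 3315 CPM in Sertoli cells, 2115, 1832 and 3221 CPM in mesenchymal cells and 1501, 1497 and 2762 CPM in Leydig cells. Germ cells had 2201 CPM in Cdk2-WT and 2853 CPM in Cdk2-Y15S. In each class Cdk2-Y15S was the highest library, at log2 ratios of 0.37 in germ, 0.44 in Sertoli, 0.61 (0.58 to 0.63) in mesenchymal and 0.88 (0.72 to 1.04) in Leydig cells. In Cdk2-HET they were -0.18, -0.21 and 0.00 in the somatic classes. Rpl26 lies at chr11:68901583-68906989 (GRCm38) and has 7 near-identical copies in the annotation, none with a row in the table. Rpl23a, a protein at the tunnel exit, was among the 3 highest in each somatic class, with 0.26, 0.32 and 0.50 in Sertoli, mesenchymal and Leydig cells. With its copy in the table added, these were 0.16, 0.21 and 0.43. Rps14, which is lost in the human 5q deletion, was among the 3 lowest members in each: 7771, 6617 and 6089 CPM in Sertoli cells and 7662, 6615 and 6124 CPM in mesenchymal cells, at ratios of -0.35 and -0.32. Cdk2-HET lay between the other libraries for Rps14 in both classes.

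Rpl29 and Rpl21 were set apart by the rule for their library differences, which are given here as a description. Rpl29, a large-subunit protein (chr9:106429454-106431568, plus strand, GRCm38), was 24.8 and 28.4 CPM in Cdk2-WT and Cdk2-HET Sertoli cells and 432 CPM in Cdk2-Y15S. In mesenchymal cells it was 30.8, 32 and 551 CPM, in Leydig cells 29.96, 30.4 and 472 CPM, and in germ cells 25.6 CPM in Cdk2-WT and 516 CPM in Cdk2-Y15S. The log2 ratios to Cdk2-WT were 3.91 to 4.31. Its processed pseudogene Gm10709 (chr9:7751725-7752204, plus strand) was lower in Cdk2-Y15S instead: 542, 493 and 253 CPM in Sertoli cells, 625, 581 and 310 CPM in mesenchymal cells, and 467 and 251 CPM in germ cells. The sum of Rpl29 and its 5 copies in the table differed less, at log2 ratios of 0.62 in germ, 0.27 in Sertoli, 0.39 in mesenchymal and 0.61 in Leydig cells.

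The transcript Rpl29-201 and Gm10709 aligned over 480 bases with 4 mismatches (99.2% identity). The following lines show both around the last position at which they differ, 145 bases from the transcript's 3′ end, in capitals and read from GENCODE transcripts on GRCm38, to show how little the aligned stretch differs. The last 121 bases of Rpl29-201 lie beyond the alignment and have no counterpart in Gm10709, while the transcript Rpl29-206 aligned over 204 bases with 0 mismatches and has 2 bases beyond.
Rpl29: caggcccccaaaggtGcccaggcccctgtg
Gm10709: caggcccccaaaggtAcccaggcccctgtg

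Rpl21, a large-subunit protein (chr5:146832890-146837032, plus strand, GRCm38), was low in Cdk2-HET: 1045, 37.6 and 754 CPM in Sertoli cells, 1179, 51.8 and 947 CPM in mesenchymal cells and 842, 53.7 and 678 CPM in Leydig cells. Germ cells, which have no Cdk2-HET library, had 742 CPM in Cdk2-WT and 679 CPM in Cdk2-Y15S. The log2 ratios of Cdk2-HET to Cdk2-WT were -4.79, -4.51 and -3.94, and -3.42, -3.18 and -2.62 with its 2 copies in the table added. The annotation holds 61 near-identical copies of Rpl21 and 58 of Rpl29. A log2 difference of at least 2 in Sertoli and mesenchymal cells, and in germ cells where sampled, was met outside the members by Eif3j2 for Cdk2-Y15S, and by Hist1h2ak, Gm20379 and Gm9008 for Cdk2-HET.

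**Figure D5:**
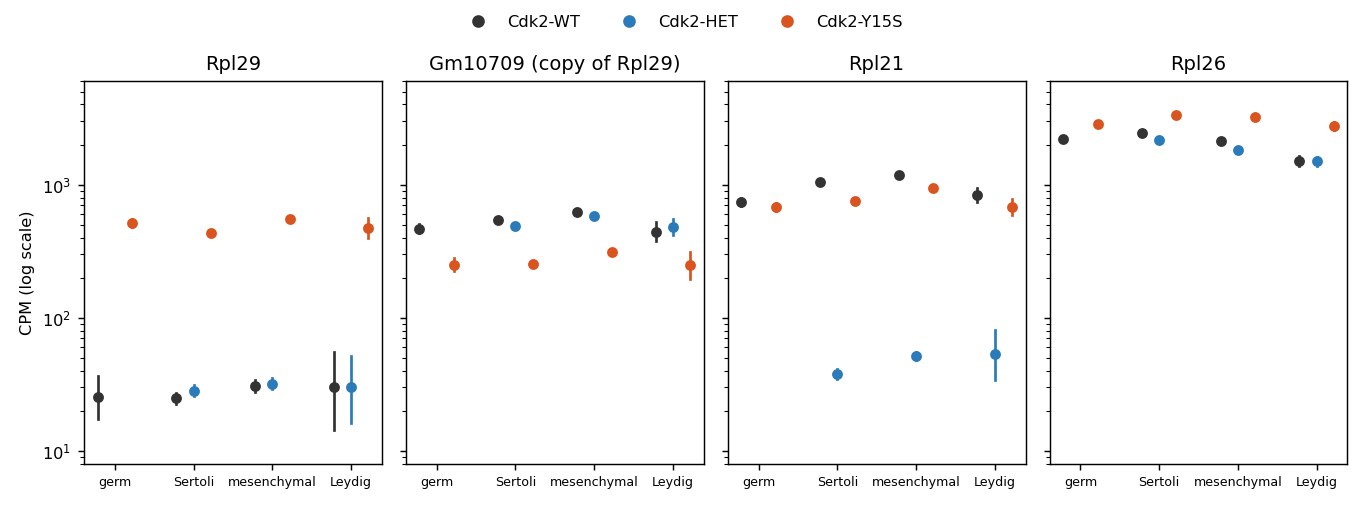
Levels of Rpl29, its pseudogene Gm10709, Rpl21 and Rpl26 (CPM, log axis) by class, with 1 point per library and 95% Poisson intervals. Rpl29 is high in Cdk2-Y15S in every class, Rpl21 is low in Cdk2-HET in every class it was read in, and Rpl26 stays within 1497 to 3315 CPM.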

How the data were processed

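Testis cells of 3 mouse libraries, 1 per genotype, were read as single cells. The deposited matrix holds whole-number UMI counts, and the deposited germ cell table holds counts equal to it for the 10439 genes compared. Cell Ranger 2.1.0, Seurat and mm10 were used, per the submitters' processing notes. What each tool did, which annotation was used and how cells were called is not given in the sources used. Libraries came with the cell barcodes, and all per-sample columns were used.

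Germ cells were the authors' 141 cells. Other cells needed 500 genes or more and no more than 10% of UMIs from mitochondria. They were left out where Scrublet (Scanpy 1.11.5, expected share 6%) called a doublet. It called 63 to 94 cells per library, of which 56 to 84 were within those gene and mitochondrial limits. Leydig cells had at least 30 UMIs of Insl3, Cyp17a1, Cyp11a1, Star and Hsd3b1 together, Sertoli cells at least 3 of Amh, Sox9, Cldn11 and Inha with at most 2 of Col1a1, Col1a2, Col3a1 and Dcn, and mesenchymal cells at least 5 of the latter. UMIs were summed per class and library, giving 290387 to 15202030 per sum. Poisson and Clopper-Pearson intervals are exact and 95%, ratios had 0.5 UMI added to each sum, and all cover counting error only. A count of 0 allows up to 3 UMIs.

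Classes were compared with edgeR 4.0.16 (quasi-likelihood, TMM, R 4.3.3) on 11 sums with library and class terms and 5 residual degrees of freedom. The library is the block because the classes of a library come from the same cell suspension. In simulated data for germ over Sertoli cells (14862 genes), the test found 43 of 100 genes changed 2-fold and 72 of 100 changed 4-fold. Among those with at least 50 germ UMIs it found 38 of 54 and 39 of 39. There were 4 false calls, but no other class or genotype difference was simulated, so this number does not carry over to the real comparison. Near-identical copies were found with BLAST+ 2.17.0 in GENCODE M21 on GRCm38 (at least 90 bases aligned). Promoters came from RefSeq (GRCm38.p6).

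The members and lists were chosen with earlier results of these data known. Named members were Rpl29, Rpl21, paralog pairs, a list of role genes, the 5 highest in germ cells and the 3 highest and 3 lowest of each comparison (at least 200 UMIs between libraries). Rpl12, Rps9, Rpl36a, Rpl4, Rpl24, Rps26 and those in counts of 5 or fewer were named after their values were seen. Alternatives covered scaling, DESeq2 1.42.0, filters, class limits, doublets, the block and each library left out. CPM values were computed here from the deposited counts.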

Additional observations from a re-analysis of the deposited data

Results flagged for a closer look

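For 2 of the 9 members past a log2 ratio of 0.5 between Cdk2-Y15S and Cdk2-WT germ cells, the ratio had the other sign in both Sertoli and mesenchymal cells, with counting intervals that leave out 0. Members with smaller germ ratios were not looked at for this. Among all 2283 genes 607 (26.6%) were past that ratio in germ cells, and how many of them changed sign likewise was not counted. Of 78 members, 57 in Sertoli and 51 in mesenchymal cells lay below 0 in Cdk2-Y15S. Rpl22l1 was lower in Cdk2-Y15S germ cells by a log2 ratio of -1.51 and was at 0.12 in Sertoli and 0.08 in mesenchymal cells. Rpl24 was higher in Cdk2-Y15S germ cells, at 0.54, and was at -0.26 in Sertoli and -0.10 in mesenchymal cells. With 1 library per genotype, the difference between classes was not tested. Germ clusters A, D and E each came from 1 library, and the part of this in the values was not tested.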

How the results depend on the processing

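Counts of members in the class comparisons kept their size within 1.5 times in most alternatives. Called in the main test and all 9 alternatives were 6 of 9 members higher and 42 of 51 lower in germ over Sertoli cells, 2 of 6 and 55 of 59 over mesenchymal cells, 1 of 2 and 21 of 42 in Sertoli over mesenchymal cells, and 1 of 65 lower in Leydig cells (Rps26). Members higher in germ than in mesenchymal cells, 6 in the main test, numbered 3 with no filter on low counts, 3 with looser cell filters (200 genes, 20% mitochondrial), 2 with stricter ones (1000 genes, 5%) and 3 with doublets kept. With stricter filters 3 members were lower in Leydig cells instead of 65. The looser and stricter filters changed the somatic cells only, and germ cells stayed at 69 and 72. Median mitochondrial shares of germ cells were 11.4% in Cdk2-WT and 10.2% in Cdk2-Y15S. A mitochondrial limit on germ cells was not tried in the class comparisons. Leaving out each library gave 7 to 11 higher and 43 to 61 lower in germ over Sertoli, 3 to 10 and 57 to 71 in germ over mesenchymal, 1 to 3 and 22 to 57 in Sertoli over mesenchymal, and 0 to 1 and 49 to 71 in Leydig over mesenchymal cells. The 1 called higher in Leydig cells appeared without Cdk2-WT and also without Cdk2-Y15S. Without the library block the counts were 10 and 49, 8 and 56, 2 and 37, and 0 and 61, so the block changed none by over 1.5 times. The shift of all genes depended on the tool: the germ over Sertoli median was 0.61 with DESeq2 and -0.14 without Cdk2-Y15S, and 46.8% to 63.1% of all calls were higher. The members' median stayed below that of all genes by 0.42 to 0.94 in germ over Sertoli cells. In Leydig cells it was above it by 0.23 with stricter filters.

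For the summed members, germ Cdk2-Y15S over Cdk2-WT was -0.03 and changed sign to 0.071 with TMM-scaled totals and to 0.068 with equal weight for clusters B and C. It was -0.046 without mitochondrial UMIs and -0.16 in germ cells with at most 10% of them. Without mitochondrial UMIs the others were -0.10 and -0.033 in Cdk2-Y15S and -0.13 and -0.10 in Cdk2-HET Sertoli and mesenchymal cells. With TMM they were -0.21, -0.072 and 0.17 in Cdk2-Y15S and -0.18, -0.15 and 0.12 in Cdk2-HET Sertoli, mesenchymal and Leydig cells. Looser filters gave -0.11 and 0.026 in Cdk2-Y15S Sertoli and Leydig cells, and -0.12, -0.11 and -0.012 in Cdk2-HET Sertoli, mesenchymal and Leydig cells, the last a change of sign. Stricter filters gave -0.14 and 0.20 in Cdk2-Y15S Sertoli and Leydig cells, and -0.14, -0.10 and 0.096 in Cdk2-HET Sertoli, mesenchymal and Leydig cells. Doublets kept gave -0.035 in Cdk2-Y15S mesenchymal cells. Other class limits gave -0.022 and -0.087 in Cdk2-Y15S and Cdk2-HET mesenchymal cells, and 0.21 and 0.020 in Leydig cells. With Rpl29 and Rpl21 in the sum, Cdk2-HET was -0.13 and -0.11 in Sertoli and mesenchymal cells.

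Members past the fold in germ cells, 9, numbered 15 with TMM and 2 at a log2 ratio of 1. They numbered 15 in germ cells with at most 10% mitochondrial UMIs and 1 with B and C weighted equally, the last pair added after seeing the data. Weighted so, Rpl38 changed sign to -0.0072. In Cdk2-Y15S, TMM gave 1 member in Sertoli and 3 in Leydig cells, a minimum of 50 UMIs gave 1 and 3, and a log2 ratio of 1 gave 0 in mesenchymal and 0 in Leydig cells. In Cdk2-HET a minimum of 50 UMIs gave 1 in Sertoli and 2 in Leydig cells. The cause of these changes was not tested. Of other values of single members under the alternatives, 612 kept direction and side of the threshold, 29 lost the call and 32 gained it. Depth limited members under 200 UMIs, which were left out of the ratio counts, and the Leydig sums.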
